A study of Mus musculus with 12 samples.

Results

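The keratins and the epithelial and mesenchymal markers described here are 10 mRNAs of 4T1 cells, a mouse mammary carcinoma line. They were chosen by gene symbol, with earlier results of these data known, so counts of members set beside all genes only describe them. The members are the keratins Krt7, Krt8, Krt14, Krt18 and Krt19, the adhesion genes Cdh1 and Epcam, and the mesenchymal markers Vim, Zeb2 and Twist1. The count table listed 55376 genes. All 10 members were among the 12224 genes tested, which had at least 1 CPM (counts scaled to library size) in at least 3 of the 12 libraries.

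The 4T1 cells carried either the empty vector (mock) or the cDNA of Mettl7a1 (METTL7A1), stably transfected under selection with the antibiotic G418, and whether each line was a clone or a pool of cells is not given in the sources used here. Both lines received cycloheximide, a drug that holds ribosomes on mRNA, at 0.1 mg/ml for 5 min before lysis, and their cytoplasmic extracts were run on sucrose gradients. Fractions 3 to 7, with ribosomal subunits and single ribosomes, made up the sub-polysomal pool, and those from 8 to 11, with mRNA that carries several ribosomes, the polysomal pool. Each pool of each line had 3 libraries, with the letters A, B and C used for either mock pool and D, E and F for either METTL7A1 pool. The study describes the fractionations of these lines as biological triplicates, but nothing ties the letters to separate cultures, so the p-values measure only the spread between these samples, which may be technical. In bulk RNA of this kind, fewer cells of a type and less RNA per cell cannot be told apart.

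Mock sub-polysomal libraries A, B and C held 1817520, 3608679 and 5738989 counts, and mock polysomal libraries A, B and C held 5966935, 6033575 and 6966156. METTL7A1 sub-polysomal libraries D, E and F held 3670942, 5004430 and 5171156 counts, and METTL7A1 polysomal libraries D, E and F held 6436665, 6890725 and 5358491. The shallowest library was thus mock sub-polysomal A, where 3 counts, the limit that a count of 0 allows, equal 1.65 CPM. The transfected gene checks the labels. Mettl7a1 (chromosome 15, 100304180 to 100328662 of GRCm38, plus strand) was at 2.82, 1.26 and 3.16 CPM in the mock sub-polysomal libraries and at 395, 284 and 236 CPM in the METTL7A1 sub-polysomal libraries. In the polysomal pools it was at 3.28, 3.02 and 2.85 CPM in mock and at 308, 313 and 273 CPM in METTL7A1 libraries. Every METTL7A1 library lay above every mock library, as the labels say.

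Keratins are the intermediate filament proteins of epithelial cells, and each filament pairs a type I with a type II keratin. Krt8 (type II) and Krt18 (type I) form the filaments of simple epithelia, Krt7 and Krt19 mark ductal and luminal cells, and Krt14 marks basal cells. In an epithelial-mesenchymal transition, cells lose E-cadherin (Cdh1) and epithelial keratins and gain vimentin (Vim), under transcription factors of the Snail, ZEB and TWIST families, of which Snail and ZEB factors bind E2 boxes in DNA.

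The epithelial markers were detected in every library, with 631 to 10694 counts for Krt8, 1381 to 13694 for Krt18, 402 to 3987 for Cdh1 and 715 to 4097 for Epcam. Of the basal markers, Krt14 had 56 to 318 counts, but Krt5, the usual type II partner of Krt14, had 0 counts in all 12 libraries, Krt17 had at most 7 and Trp63 at most 2. Among the mesenchymal markers Vim had 392 to 2943 counts and Fn1, which encodes fibronectin, 951 to 3917, while N-cadherin (Cdh2) was at 0 in all libraries and Zeb1 had at most 2 counts. The cells thus carried epithelial mRNAs together with Vim, and lacked or nearly lacked part of the basal and mesenchymal markers. Of 7 fibroblast markers, 4 were at 0 in every library (Pdgfrb, Col1a2, Col3a1 and Lum), and the list summed to between 0.871 and 7.37 CPM per library, most of it Pdgfra with 4 to 43 counts. The 4 endothelial markers summed to 0, 0 and 0 counts in mock and 2, 2 and 3 in METTL7A1 sub-polysomal libraries, and to 0, 1 and 0 in mock and 7, 3 and 3 in METTL7A1 polysomal libraries, at most 1.09 CPM. They were thus higher in every METTL7A1 library than in the mock libraries of its pool, at counts near 0, and their part in the changes of the members was not tested. Of these markers Kdr was at 0 in all 12 libraries, and Cdh5 was the most abundant at a mean of 0.217 CPM.

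Of the leukocyte markers, Adgre1 and Cd3e were at 0 in every library, Ptprc had at most 1 count and Csf1r at most 8. The list summed to 11.0, 7.20 and 7.67 CPM in mock and 15.8, 15.8 and 9.09 CPM in METTL7A1 sub-polysomal libraries, and to 6.20, 9.12 and 9.47 CPM in mock and 26.7, 25.1 and 16.4 CPM in METTL7A1 polysomal libraries. Nearly all of this sum was Cd68, a lysosomal glycoprotein gene typical of macrophages, at a mean of 12.7 CPM. Cd68 rose in METTL7A1 polysomal RNA with a log2 change of 1.56 (edgeR's quasi-likelihood test, Benjamini-Hochberg adjusted p = 0.00011), and its part in the changes of the members was not tested.

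Levels were compared between genes per length of the annotated exons, as RPKM (CPM per kilobase). Krt18 was the most abundant member in all 4 groups, at 607 ± 62.1 RPKM (SD, n = 3) in mock sub-polysomal, 727 ± 51.4 in mock polysomal, 629 ± 19.9 in METTL7A1 sub-polysomal and 1109 ± 113 in METTL7A1 polysomal RNA. Behind Krt18 in mock sub-polysomal RNA came Krt7 (201 ± 10.9 RPKM), Krt8 (199 ± 14.9), Epcam (179 ± 34.4), Vim (96.1 ± 5.28), Cdh1 (46.6 ± 7.06), Krt19 (42.0 ± 5.67), Twist1 (28.9 ± 3.33), Krt14 (17.0 ± 1.93) and Zeb2 (0.591 ± 0.254), all n = 3. The single libraries of Krt7 and Krt8, of Krt8 and Epcam, and of Cdh1 and Krt19 overlapped there, and the other neighbours in this order did not. METTL7A1 polysomal RNA gave another order, with Krt8 (636 ± 57.1 RPKM) well above Krt7 (414 ± 46.4), followed by Epcam (231 ± 36.1), Vim (135 ± 14.3), Cdh1 (110.0 ± 11.8), Krt19 (88.2 ± 6.56), Krt14 (17.5 ± 0.918), Twist1 (10.6 ± 3.04) and Zeb2 (0.323 ± 0.0386), and only Vim and Cdh1 overlapped as neighbours. Among all genes tested, the mean RPKM of Krt18 in this group lay at the 99.7th percentile and that of Zeb2 at the 7.07th.

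The keratin members lie on chromosomes 15 and 11, and the other members apart from them. Krt8 (chromosome 15, 101996698 to 102004482, minus strand) and Krt18 (102028180 to 102032027, plus strand) stand 23.7 kb apart with 0 other genes between them, and Krt7 (101412402 to 101430313, plus strand) lies 566 kb from Krt8. Krt19 (100140810 to 100146120) and Krt14 (100203162 to 100207548) lie on the minus strand of chromosome 11, 57.0 kb apart. Cdh1 is on chromosome 8 (106603351 to 106670246), Epcam on chromosome 17 (87635979 to 87651129), Vim (13573952 to 13582826) and Zeb2 (44983632 to 45117395, minus strand) on chromosome 2, and Twist1 on chromosome 12 (33957671 to 33959829), with all coordinates in GRCm38. The strand setting of the authors' counting is not given, and reads of Gm36026, which overlaps exons of Krt8 on the opposite strand, and of Zeb2os, which overlaps those of Zeb2 from the other strand, could count for their partner or the reverse. Gm36026 had at most 10 counts a library, low beside the 631 to 10694 of Krt8, and the pseudogene Krt8-ps had 0 to 21, with the handling of shared reads not stated either. Zeb2os and Mir5129, which lies in Zeb2 on the same strand, had at most 8 counts, which is not low beside the 10 to 47 counts of Zeb2.

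The members include a gene of the ZEB family, whose factors bind E2 boxes. Promoters of the members were therefore searched on both strands for the E2 box CAGGTG and for any E box, CANNTG. RefSeq promoters of GRCm38.p6 were used. Every CAGGTG is also a CANNTG. For 8 of the 10 members a promoter was matched (11 promoters among 32851), and none was matched for Krt19 and Cdh1. The matches of 7 members are given. The result for Krt8 is left out here, so the members listed with the box need not be all that hold it. Among these 7 members, within 250 bases before the start, CAGGTG or its reverse complement CACCTG occurred at -44 in Krt7, at -214 in Krt18, and at -187 and -19 in Epcam. Krt14, Vim, Zeb2 (4 promoters) and Twist1 held none there. Of all 32851 promoters, 17.2% held the box in the same window, 2.06% held it at least 2 times, and 66.2% held a CANNTG. Stretches outside the exons of the counted annotation are shown for these 3 members, with the box in capitals.
Krt7 (chr15:101412312-101412401, + strand): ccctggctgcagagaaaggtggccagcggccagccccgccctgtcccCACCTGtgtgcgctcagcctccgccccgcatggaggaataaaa
Krt18 (chr15:102027966-102028179, + strand): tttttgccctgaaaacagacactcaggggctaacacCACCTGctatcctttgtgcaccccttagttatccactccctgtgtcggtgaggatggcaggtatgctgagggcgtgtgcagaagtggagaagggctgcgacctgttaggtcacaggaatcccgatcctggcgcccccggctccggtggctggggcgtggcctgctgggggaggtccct
Epcam (chr17:87635729-87635978, + strand): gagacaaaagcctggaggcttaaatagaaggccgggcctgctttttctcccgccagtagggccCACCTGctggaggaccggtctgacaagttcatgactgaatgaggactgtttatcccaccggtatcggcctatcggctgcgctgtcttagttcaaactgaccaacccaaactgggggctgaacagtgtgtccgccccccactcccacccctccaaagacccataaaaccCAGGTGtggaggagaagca
A match describes these letters only and is not a site of binding.

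The comparison of METTL7A1 with mock cells asks how the abundance of these mRNAs differed between the lines in each pool. Genotype and line are the same contrast here. An effect of the transfected gene therefore cannot be told apart from other differences between the lines. METTL7A1 cells had more Krt8 mRNA in each pool, Krt18 and Krt19 mRNA were higher in the polysomal pool, and Epcam mRNA was lower in the sub-polysomal pool, by 1.53-fold to 1.76-fold for the rises and to 0.611 of the mock level for the fall. A gene passed when its adjusted p lay below 0.01. In polysomal RNA 3 members rose and 0 fell, where 5.03% of the 12224 tested genes rose and 3.78% fell. In sub-polysomal RNA 1 member rose and 1 fell, where 10.5% of tested genes rose and 7.69% fell. No member went beyond a log2 change of 1.5, which 2.13% of tested genes did in polysomal and 2.76% in sub-polysomal RNA together with an adjusted p below 0.01. The CPM of the genotypes did not overlap for 7 members in polysomal RNA, where 36.6% of tested genes did not overlap, and for 6 members in sub-polysomal RNA, where 43.9% did not.

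**Figure D1:**
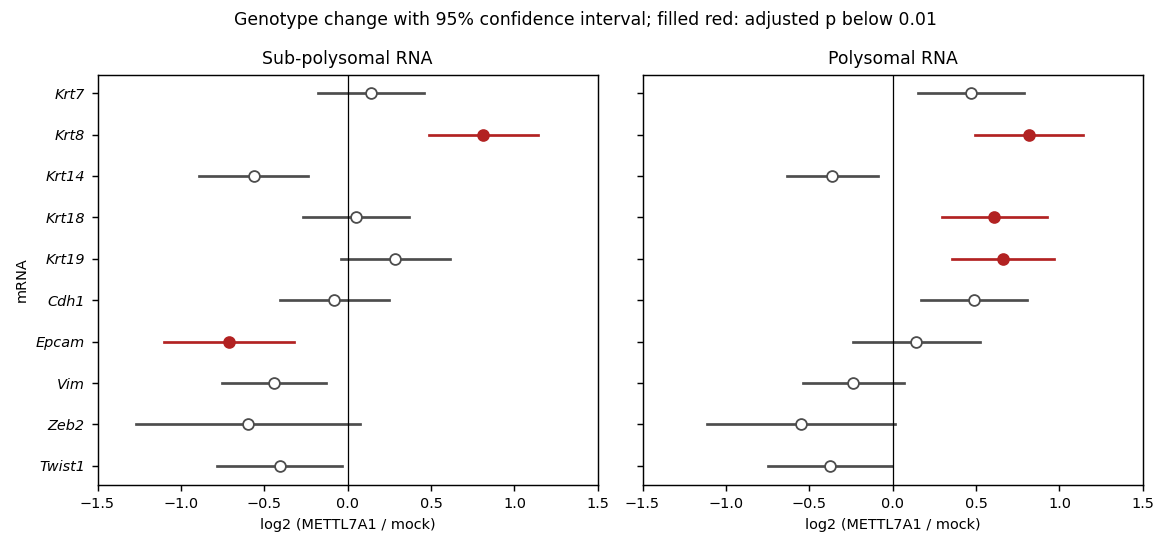
Log2 change of each mRNA in METTL7A1 against mock cells (x axis) with its 95% confidence interval, in sub-polysomal RNA on the left and polysomal RNA on the right; filled red points passed at an adjusted p below 0.01. Krt8 lies at 0.81 and 0.82 in the pools, Krt18 and Krt19 passed at 0.61 and 0.66 in polysomal RNA, and Epcam passed at -0.71 in sub-polysomal RNA.

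The median log2 change of the members was 0.31 in polysomal RNA, beside -0.01 over all tested genes, and -0.24 in sub-polysomal RNA, beside -0.0015. For the 5 keratins the medians were 0.61 and 0.14. These values use TMM scaling. With libraries scaled to their Actb count in its place, the median of all tested genes moved from -0.0015 to 0.26 in sub-polysomal RNA, so that sub-polysomal changes near that size rest on the scaling. The balance over all genes moved with it: in sub-polysomal RNA 2093 genes rose and 273 fell with Actb scaling, against 1279 and 940 with TMM factors, and in polysomal RNA 577 rose and 224 fell, against 615 and 462 (edgeR's quasi-likelihood test). Actb itself lay between 2427 and 3436 CPM in the 12 libraries, with log2 changes of -0.10 (polysomal) and -0.26 (sub-polysomal), and passed in neither. In sub-polysomal RNA its METTL7A1 libraries, at 2441, 2427 and 2706 CPM, all lay below mock, at 2747, 3368 and 2953 CPM. Of all tested genes 43.9% did not overlap there.

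Krt8, the type II partner of Krt18, was at 356, 412 and 398 CPM in the mock sub-polysomal libraries A to C and at 715, 718 and 619 CPM in the METTL7A1 sub-polysomal libraries D to F. In polysomal RNA it was at 800.5, 599.8 and 717 CPM in mock and at 1169, 1373 and 1192 CPM in METTL7A1 libraries. All 3 METTL7A1 libraries were above all 3 mock libraries in each pool, and the sub-polysomal METTL7A1 libraries reached the range of the polysomal mock libraries. The log2 change was 0.81 (95% confidence interval 0.49 to 1.14) in sub-polysomal RNA (edgeR's quasi-likelihood test, Benjamini-Hochberg adjusted p = 0.000739). It was 0.82 (0.49 to 1.14) in polysomal RNA (edgeR's quasi-likelihood test, Benjamini-Hochberg adjusted p = 0.0011). Apart from the demand for a log2 change beyond 1.5, the sub-polysomal rise passed under every alternative tried, with adjusted p-values of edgeR's quasi-likelihood test, limma-voom or DESeq2 (Benjamini-Hochberg) from 5.26e-08 to 0.00955. The polysomal rise of Krt8 did not pass without mock replicate B or without METTL7A1 replicate E, where edgeR's quasi-likelihood test gave Benjamini-Hochberg adjusted p-values of 0.0136 and 0.0211 within a range of 3.92e-08 to 0.0211 over the alternatives.

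Krt7, the other type II keratin, was at 795, 875 and 801 CPM in mock and at 881, 938 and 905 CPM in METTL7A1 sub-polysomal libraries. Its polysomal libraries were at 1339.5, 1085 and 1242 CPM in mock and at 1585, 1913 and 1583 CPM in METTL7A1 cells. The METTL7A1 libraries were above the mock libraries in both pools, by a narrow gap between 875 and 881 CPM in sub-polysomal RNA. The log2 change of 0.47 (0.15 to 0.79) in polysomal RNA did not pass (edgeR's quasi-likelihood test, Benjamini-Hochberg adjusted p = 0.0381), though it did with DESeq2 (adjusted p = 0.00137) and, with edgeR's quasi-likelihood test, without mock replicate A (Benjamini-Hochberg adjusted p = 0.00712), in a range of 0.00137 to 0.236 over the alternatives. In sub-polysomal RNA the log2 change was 0.14 (edgeR's quasi-likelihood test, Benjamini-Hochberg adjusted p = 0.515).

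Krt18 was at 779, 957 and 879.6 CPM in mock and at 920.2, 919 and 870.4 CPM in METTL7A1 sub-polysomal libraries. In polysomal RNA the mock libraries were at 1062, 964 and 1108 CPM and the METTL7A1 libraries at 1589, 1758 and 1435 CPM. The genotypes overlapped in the sub-polysomal pool, while in the polysomal pool all 3 METTL7A1 libraries stood above all 3 mock libraries. The polysomal rise was 0.61 on the log2 scale (0.29 to 0.93; edgeR's quasi-likelihood test, Benjamini-Hochberg adjusted p = 0.00873) and the sub-polysomal log2 change was 0.05. This call lay close to the threshold: it was lost under 8 of 15 alternatives, among them without mock replicate B or C and without METTL7A1 replicate D, E or F, where edgeR's quasi-likelihood test gave Benjamini-Hochberg adjusted p-values of 0.0507, 0.0222, 0.0376, 0.089 and 0.0164, within a range of 6.78e-06 to 0.089. Keeping all genes with a count, or those with at least 10 counts in every library, gave Krt18 adjusted p-values of 0.0102 and 0.0103 in edgeR's quasi-likelihood test with Benjamini-Hochberg adjustment, in that same range.

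Krt19, a type I keratin without a long tail domain, was at 68.3, 74.0 and 56.5 CPM in mock and at 96.5, 78.9 and 66.0 CPM in METTL7A1 sub-polysomal libraries. Its polysomal libraries were at 92.7, 81.4 and 89.1 CPM in mock and at 132, 151 and 135 CPM in METTL7A1 cells. Only the polysomal groups were apart, and in the sub-polysomal pool METTL7A1 replicate F lay below mock replicates A and B. In polysomal RNA Krt19 rose by 0.66 on the log2 scale (0.36 to 0.97; edgeR's quasi-likelihood test, Benjamini-Hochberg adjusted p = 0.00369), and the sub-polysomal log2 change was 0.28 (edgeR's quasi-likelihood test, Benjamini-Hochberg adjusted p = 0.175). Without mock replicate B or METTL7A1 replicate E the polysomal rise did not pass, with adjusted p-values of 0.023 and 0.047 in edgeR's quasi-likelihood test with Benjamini-Hochberg adjustment, and a range of 0.000209 to 0.047 over the alternatives.

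Krt14, the basal type I keratin, was at 31.6, 29.9 and 25.3 CPM in mock and at 21.9, 18.1 and 18.2 CPM in METTL7A1 sub-polysomal libraries. In polysomal RNA it was at 40.0, 35.3 and 39.5 CPM in mock and at 31.2, 29.9 and 28.1 CPM in METTL7A1 libraries. It was the keratin whose METTL7A1 libraries lay below the mock libraries, in both pools and without overlap. The log2 change of -0.56 (-0.89 to -0.24) in sub-polysomal RNA missed the threshold by little (edgeR's quasi-likelihood test, Benjamini-Hochberg adjusted p = 0.0102) and passed with RLE factors or a filter of at least 10 counts in every library (0.00829 and 0.00762 in the same test), while scaling to Actb gave 0.211, the highest of the range from 0.00762 to 0.211. In polysomal RNA the log2 change was -0.36 (edgeR's quasi-likelihood test, Benjamini-Hochberg adjusted p = 0.0614). Averaged over both pools, a comparison that served to rank list genes and was not run under the alternatives, Krt14 passed at -0.46, as did Krt8 at 0.82 and Krt19 at 0.47, and no other member did (edgeR's quasi-likelihood test, Benjamini-Hochberg adjusted p = 0.00144, 1.29e-05 and 0.00176). In that averaged comparison 5846 of the 12224 tested genes had an unadjusted p below 0.05 in edgeR's quasi-likelihood test. The share of tested genes that passed it is not given here, so these calls stand without a background.

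**Figure D2:**
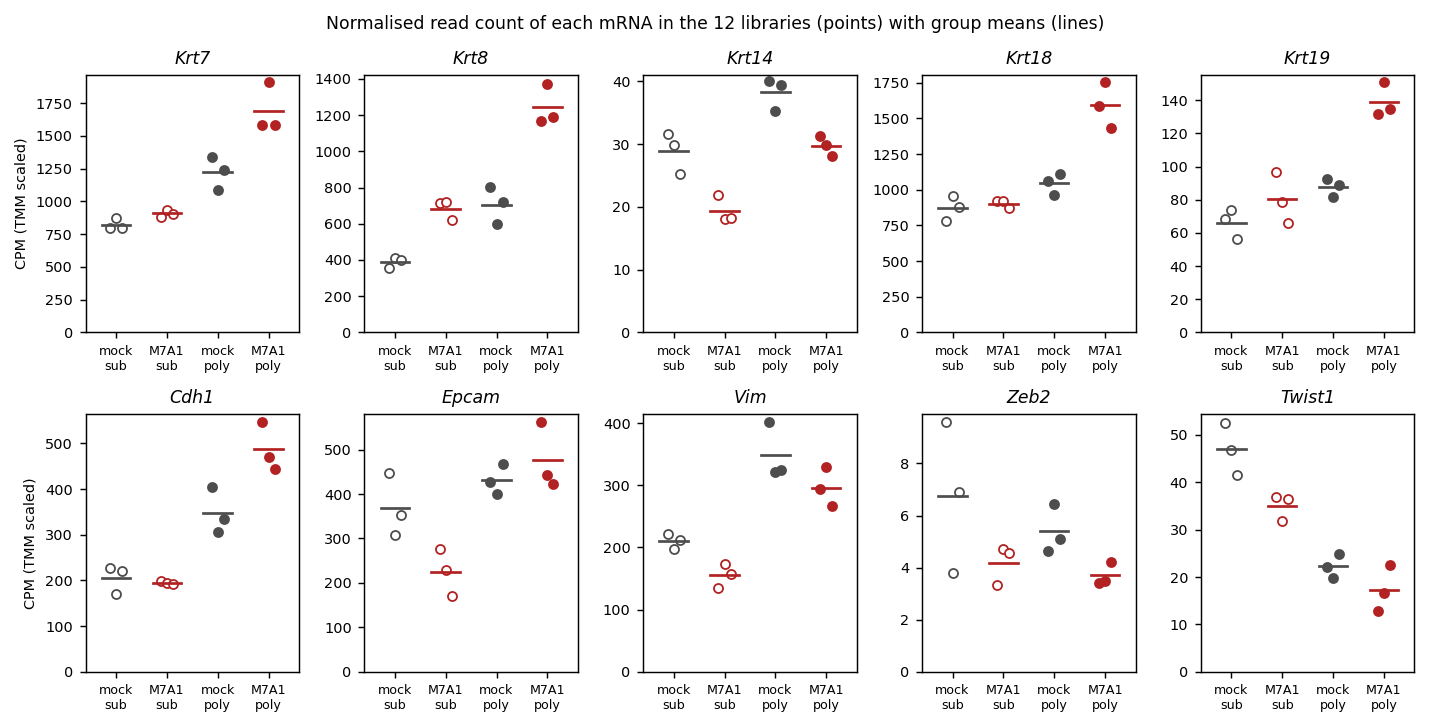
Normalised read count (CPM with TMM factors, y axis) of each mRNA in the 12 libraries, with points for libraries, lines for group means, grey for mock, red for METTL7A1 (M7A1), open for sub-polysomal and filled for polysomal RNA. Krt8 is higher in all 3 METTL7A1 libraries of each pool, at 619 to 718 CPM against 356 to 412 CPM in sub-polysomal RNA, and Twist1 is the mRNA that is lower in every polysomal than in every sub-polysomal library of its genotype.

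Since only Krt8 of the filament pair was higher in both pools, the ratio of Krt8 to Krt18 per exon length was formed within each library, where scaling cancels. It was 0.335, 0.316 and 0.332 in mock and 0.570, 0.573 and 0.522 in METTL7A1 sub-polysomal libraries, and 0.553, 0.457 and 0.475 in mock and 0.540, 0.573 and 0.610 in METTL7A1 polysomal libraries. The 3 mock sub-polysomal libraries stood apart from the other 9, and in polysomal RNA the genotypes overlapped. Krt18 thus remained the more abundant of the pair per length in all 12 libraries. The ratio of Krt7 to Krt8 was 1.07, 1.02 and 0.962 in mock and 0.589, 0.625 and 0.699 in METTL7A1 sub-polysomal libraries, and 0.800, 0.865 and 0.828 in mock and 0.649, 0.666 and 0.635 in METTL7A1 polysomal libraries. In both pools the METTL7A1 libraries were lower without overlap, for a ratio whose denominator, Krt8, rose in both. The ratio of Krt19 to Krt18 overlapped between the genotypes in both pools. It was 0.0585 to 0.0799 in mock and 0.0691 to 0.0956 in METTL7A1 sub-polysomal libraries. In polysomal libraries it was 0.0733 to 0.0796 in mock and 0.0754 to 0.0855 in METTL7A1 cells. Together, Krt7, Krt8, Krt18 and Krt19 took 1999, 2319 and 2135 CPM in mock and 2613, 2654 and 2460.2 CPM in METTL7A1 sub-polysomal libraries, and 3295, 2729.9 and 3157 CPM in mock and 4475, 5196 and 4344 CPM in METTL7A1 polysomal libraries.

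**Figure D3:**
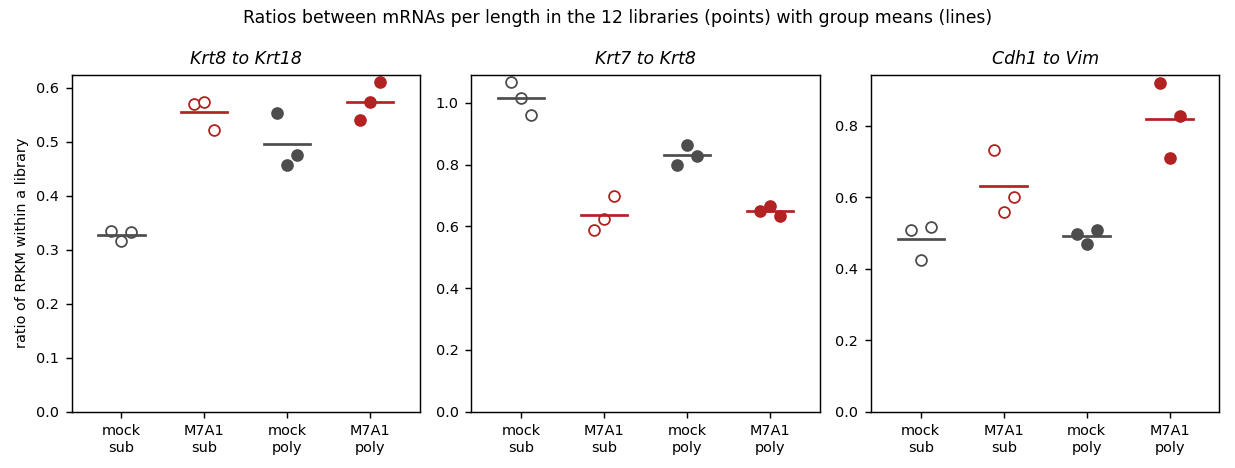
Ratios of the RPKM of Krt8 to Krt18, Krt7 to Krt8 and Cdh1 to Vim within each library (y axis, no unit), with points for libraries and lines for the means of 3 libraries. The mean ratio of Krt8 to Krt18 is 0.328 in mock sub-polysomal RNA and 0.495 to 0.574 in the other groups, and that of Cdh1 to Vim is highest in METTL7A1 polysomal RNA at 0.818.

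Cdh1, which encodes the adherens junction protein E-cadherin, was at 227, 170.3 and 222 CPM in mock and at 198, 195 and 191 CPM in METTL7A1 sub-polysomal libraries. In polysomal RNA it was at 404, 306 and 334 CPM in mock and at 546, 471 and 445 CPM in METTL7A1 libraries. The sub-polysomal groups overlapped and the polysomal groups did not. The polysomal log2 change of 0.49 (0.17 to 0.81) did not pass (edgeR's quasi-likelihood test, Benjamini-Hochberg adjusted p = 0.0322), but passed with DESeq2 and without mock replicate A (adjusted p = 0.00949 and 0.00447; range 0.00447 to 0.16, Benjamini-Hochberg). The sub-polysomal log2 change was -0.08, and 0.16 with scaling to Actb.

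Epcam, an epithelial surface adhesion gene, was at 447, 307 and 354 CPM in mock and at 277, 229 and 171 CPM in METTL7A1 sub-polysomal libraries. Its polysomal libraries were at 427, 400.0 and 467 CPM in mock and at 561, 443 and 424 CPM in METTL7A1 cells. All 3 METTL7A1 libraries were below the mock libraries in the sub-polysomal pool, and the groups overlapped in the polysomal pool. Epcam fell by 0.71 on the log2 scale in sub-polysomal RNA (95% confidence interval -1.10 to -0.32; edgeR's quasi-likelihood test, Benjamini-Hochberg adjusted p = 0.00708), and its polysomal log2 change was 0.14 (-0.24 to 0.52). The fall did not pass with scaling to Actb (log2 change -0.46) or without mock replicate A or C or METTL7A1 replicate E or F, where edgeR's quasi-likelihood test gave Benjamini-Hochberg adjusted p-values of 0.133, 0.0183, 0.0133, 0.0397 and 0.0484, in a range of 0.000654 to 0.133.

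Vim, the intermediate filament gene of mesenchymal cells, was at 221, 198 and 213 CPM in mock and at 134, 173 and 158 CPM in METTL7A1 sub-polysomal libraries. In polysomal RNA it was at 402, 322 and 325 CPM in mock and at 294, 329 and 266 CPM in METTL7A1 libraries. The METTL7A1 libraries were lower without overlap in the sub-polysomal pool and overlapped mock in the polysomal pool. Neither log2 change passed, at -0.44 (-0.75 to -0.13) in sub-polysomal and -0.24 (-0.54 to 0.07) in polysomal RNA (edgeR's quasi-likelihood test, Benjamini-Hochberg adjusted p = 0.0305 and 0.284). Per length, the ratio of Cdh1 to Vim was 0.508, 0.425 and 0.516 in mock and 0.731, 0.559 and 0.600 in METTL7A1 sub-polysomal libraries, and 0.498, 0.470 and 0.509 in mock and 0.918, 0.709 and 0.827 in METTL7A1 polysomal libraries. The ratio was higher in the METTL7A1 libraries of each pool without overlap, and Vim stayed above Cdh1 per length in all 12. The ratio of Epcam to Vim did not follow it: it was 2.15, 1.65 and 1.77 in mock and 2.19, 1.41 and 1.15 in METTL7A1 sub-polysomal libraries, and 1.13, 1.32 and 1.53 in mock and 2.03, 1.43 and 1.69 in METTL7A1 polysomal libraries. The genotypes overlapped in both pools for this ratio, with a lower METTL7A1 mean in sub-polysomal RNA (1.58 against 1.85) and a higher one in polysomal RNA (1.72 against 1.33). With 3 against 3 libraries, the smallest p of an exact permutation test would be 0.1, and these ratios were not tested.

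Twist1, a basic helix-loop-helix factor, was at 52.5, 46.9 and 41.7 CPM in mock and at 36.8, 31.8 and 36.6 CPM in METTL7A1 sub-polysomal libraries. In polysomal RNA it was at 22.1, 19.8 and 24.9 CPM in mock and at 12.7, 16.6 and 22.6 CPM in METTL7A1 libraries. The genotypes were apart in the sub-polysomal pool and overlapped in the polysomal pool, and neither log2 change passed, at -0.41 (-0.78 to -0.03) and -0.38 (-0.75 to -0.0065). Zeb2, a zinc finger repressor, had 17, 12 and 35 counts (9.59, 3.78 and 6.91 CPM) in mock and 10, 19 and 19 counts (3.32, 4.71 and 4.54 CPM) in METTL7A1 sub-polysomal libraries. In the polysomal pool it had 34, 47 and 41 counts (4.64, 6.46 and 5.09 CPM) in mock and 25, 27 and 25 counts (3.42, 3.47 and 4.21 CPM) in METTL7A1 libraries. The polysomal groups of Zeb2 did not overlap, and its log2 changes of -0.60 (-1.27 to 0.07) in sub-polysomal and -0.55 (-1.11 to 0.01) in polysomal RNA did not pass. Zeb2 had 10 to 47 counts a library, and these intervals are the widest among the members.

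The comparison of polysomal with sub-polysomal RNA within a line asks which share of an mRNA's copies went with several ribosomes, relative to the other mRNAs of the pools. Twist1 was lower in polysomal RNA of both lines, and more members rose there in METTL7A1 than in mock cells. In mock cells 4 members rose (Krt7, Krt8, Cdh1 and Vim) and 1 fell (Twist1), where 15.7% of tested genes rose and 17.9% fell. In METTL7A1 cells 8 rose, which are these 4 with Krt14, Krt18, Krt19 and Epcam, and again Twist1 fell, where 23% of tested genes rose and 23.7% fell. No member passed a log2 change of 1.5, which 7.55% of tested genes did in mock and 12.1% in METTL7A1 cells. These shares rest on the scaling as well: with libraries scaled to Actb, 1335 genes rose and 3406 fell in METTL7A1 cells, against 2807 and 2899 with TMM factors, and 1226 rose and 2076 fell in mock cells, against 1918 and 2188. The pools did not overlap in CPM for 8 members in mock and 9 in METTL7A1 cells, where 51.9% and 66.8% of tested genes did not. The medians of the members were 0.42 and 0.84 on the log2 scale, beside 0.05 and 0.06 over all tested genes.

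Twist1 fell by 1.06 on the log2 scale in mock cells (95% confidence interval -1.43 to -0.69; edgeR's quasi-likelihood test, Benjamini-Hochberg adjusted p = 9.35e-05), with all 3 polysomal libraries below all 3 sub-polysomal libraries. In METTL7A1 cells it fell by 1.03 (-1.41 to -0.65; edgeR's quasi-likelihood test, Benjamini-Hochberg adjusted p = 9.24e-05), in the same 3 against 3 manner. Zeb2, the other transcription factor, was at -0.26 and -0.21 and passed in neither line. Cdh1 rose by 0.76 (0.43 to 1.08) in mock and by 1.32 (1.00 to 1.65) in METTL7A1 cells (edgeR's quasi-likelihood test, Benjamini-Hochberg adjusted p = 0.000611 and 1.2e-06), higher in 3 of 3 libraries each. Vim rose by 0.73 and 0.94, and Krt8 by 0.86 in both lines, again with every polysomal library above every sub-polysomal one. Krt7 rose by 0.57 and 0.90, and in mock cells this call was lost with Actb scaling, with only the compared groups in the fit, without mock replicate A or C and without METTL7A1 replicate E (edgeR's quasi-likelihood test, Benjamini-Hochberg adjusted p = 0.0259, 0.0249, 0.0245, 0.0426 and 0.013; range 4.48e-05 to 0.0426). Krt14 rose by 0.63 in METTL7A1 cells, a call lost with Actb scaling and without METTL7A1 replicate E or F (edgeR's quasi-likelihood test, Benjamini-Hochberg adjusted p = 0.0626, 0.0255 and 0.0124; range 0.000731 to 0.0626), and Krt19 rose by 0.79, a call lost with Actb scaling (edgeR's quasi-likelihood test, Benjamini-Hochberg adjusted p = 0.0126; range 3.23e-06 to 0.0126).

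Krt18, Krt19, Krt14 and Epcam passed between the pools in METTL7A1 but not in mock cells, with log2 changes of 0.82, 0.79, 0.63 and 1.08 in METTL7A1 and 0.26, 0.41, 0.43 and 0.23 in mock cells. Whether the lines differ is the test of the shift, the pool ratio in METTL7A1 minus that in mock cells on the log2 scale. No member passed it, nor did any other gene: 0 of 12224 passed with edgeR (0% higher and 0% lower; smallest Benjamini-Hochberg adjusted p of the quasi-likelihood test 0.0939), while 1911 had an unadjusted p below 0.05, limma-voom gave 0 genes and DESeq2 39. The shifts of the members ranged from 0.0047 for Krt8 to 0.85 for Epcam, with a median of 0.27 beside -0.0079 over all tested genes. Those of Epcam (0.85, 0.31 to 1.40), Cdh1 (0.57, 0.11 to 1.02) and Krt18 (0.56, 0.11 to 1.01) had 95% confidence intervals above 0 before any adjustment, and adjusted p-values of 0.138, 0.218 and 0.217 (edgeR's quasi-likelihood test, Benjamini-Hochberg). The shifts of Krt19 and Krt14 were 0.38 and 0.20, with intervals that hold 0. For Krt8 the interval was -0.45 to 0.46, and for Twist1 -0.50 to 0.56 around 0.03. The calls in a single line are therefore not shown to differ between the lines.

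Ratios of single letters show the spread behind the shift. Epcam had log2 ratios of polysomal to sub-polysomal CPM of -0.07, 0.38 and 0.40 for mock A to C and of 1.02, 0.95 and 1.31 for METTL7A1 D to F. Cdh1 had 0.83, 0.84 and 0.59 in mock and 1.46, 1.27 and 1.22 in METTL7A1 cells. Krt18 had 0.45, 0.0092 and 0.33 in mock and 0.79, 0.94 and 0.72 in METTL7A1 cells. In all of these the 3 METTL7A1 ratios lay above the 3 mock ratios, as they did for Krt7 (0.31 to 0.75 in mock, 0.81 to 1.03 in METTL7A1 cells). These 4 members did not overlap, where 22.8% of tested genes did not, and each had a two-sided exact permutation p of 0.1, the smallest that 3 against 3 can give. The other 6 members overlapped, among them Krt8 (0.54 to 1.17 in mock, 0.71 to 0.95 in METTL7A1 cells) and Twist1 (-1.23 to -0.73 and -1.504 to -0.69). The ratios divide libraries that share a letter, although the letters did not prove to pair the pools.

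**Figure D4:**
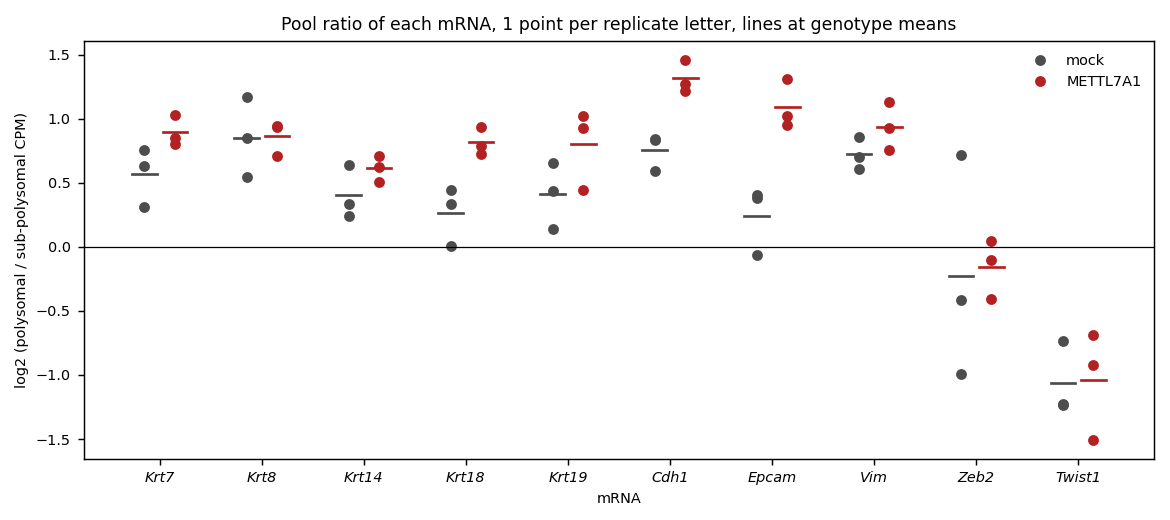
Log2 ratio of polysomal to sub-polysomal CPM of each mRNA (y axis), with 1 point per replicate letter, grey for mock, red for METTL7A1, and lines at the genotype means. Epcam, Cdh1, Krt18 and Krt7 have their 3 METTL7A1 points above their 3 mock points, and Twist1 lies between -1.504 and -0.69 in all 6.

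Across the 12 libraries, which share pools and genotypes, log2 CPM values of Krt7 and Krt18 had a Pearson r of 0.954, those of Krt18 and Krt19 0.924, those of Krt8 and Krt19 0.924 and those of Krt8 and Krt18 0.888, as a description of these libraries. Twist1 ran the other way, with r = -0.892 to Krt7 and r = -0.892 to Cdh1. Krt14 had r = 0.08 to Krt8 and 0.42 to Krt7, and higher values to Vim (0.859) and Epcam (0.841). Once the mean of each of the 4 groups was taken off, Krt7 and Krt8 (0.838), Krt8 and Krt18 (0.761) and Krt7 and Krt18 (0.752) still varied together over the 12 libraries, with lower values for Krt8 and Krt19 (0.565) and for Krt18 and Krt19 (0.419). Twist1 had centred values of 0.06 to Krt7 and -0.28 to Cdh1. On that centred scale Krt14 had r = 0.783 to Krt19, 0.631 to Epcam, 0.249 to Krt8 and -0.10 to Vim over the 12 libraries, so its likeness to Vim lay in the group means. Of all tested genes, the 3 with the profile most like that of a member, by Pearson r over the 12 libraries, were Cdk1 (0.987), Pwp2 (0.985) and Gsn (0.983) for Krt8. They were Idh3b (0.985), Ncaph (0.980) and Pwp1 (0.977) for Krt7, Cs (0.963), Krt7 (0.954) and Ermp1 (0.953) for Krt18, and Nup107 (0.975), Pard6b (0.961) and Igsf8 (0.961) for Krt19. For Krt14 they were Ern1 (0.981), Rab23 (0.980) and 4931406C07Rik (0.978), for Cdh1 Itgb1 (0.989), Aplp2 (0.988) and Atp2a2 (0.986), and for Epcam Golm1 (0.990), Atp1b3 (0.975) and Psmd7 (0.970). Vim had Parg (0.991), Wdr1 (0.991) and Nup54 (0.989), Twist1 had Gm16754 (0.957), D730044K07Rik (0.956) and Gcsh (0.952), and Zeb2, at its low counts, had Nsun3 (0.944), Zfp60 (0.936) and Zfp846 (0.887).

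Lists of related genes set the members in context, and their counts stand beside shares of 5.03% higher and 3.78% lower over all tested genes in polysomal RNA and of 10.5% and 7.69% in sub-polysomal RNA. In lists of this size, 1 or 2 genes that passed in a direction lie near these shares and say little about the list. The other keratins were few. Of 54 keratin symbols listed, 26 had 0 counts in every library and 9 were tested, the 5 members with Krt80, Krt10, Krt16 and Krt13. Krt80, a type II keratin, had 55.2 ± 5.54 CPM in mock and 104 ± 5.64 CPM in METTL7A1 sub-polysomal RNA, and 44.8 ± 3.64 and 84.1 ± 9.22 CPM in polysomal RNA (SD, n = 3). It rose by 0.90 in sub-polysomal and 0.91 in polysomal RNA (edgeR's quasi-likelihood test, Benjamini-Hochberg adjusted p = 0.000114 and 1e-04), a rise in both pools like that of Krt8, and passed under all alternatives but the demand for a log2 change beyond 1.5 (adjusted p up to 0.0013 and 0.00356). Krt10, Krt16 and Krt13 averaged 8.00, 2.33 and 0.587 CPM and did not pass between genotypes. Over the 9 keratins tested, 4 rose in polysomal RNA and 2 in sub-polysomal RNA, with medians of 0.58 and 0.14, and 0 fell in either pool (edgeR's quasi-likelihood test).

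The keratin partners and linkers are plakins and other proteins that tie keratin filaments to junctions or organise them. Of 11 listed genes 10 were tested, with 1 rise in polysomal RNA, 2 in sub-polysomal RNA and 0 falls, and medians of 0.09 and 0.67, counts near the shares over all tested genes. Fam83h, which organises keratin filaments, went from 33.2 ± 3.50 to 87.4 ± 15.1 CPM (SD, n = 3) in sub-polysomal RNA and rose by 1.39 (edgeR's quasi-likelihood test, Benjamini-Hochberg adjusted p = 1.37e-05). Plec, which encodes the linker plectin, went from 41.1 ± 16.1 to 90.6 ± 17.7 CPM (SD, n = 3) and rose by 1.10 in sub-polysomal RNA (edgeR's quasi-likelihood test, Benjamini-Hochberg adjusted p = 0.000834). In polysomal RNA their log2 changes were 0.52 and 0.20 without passing, and the tests of their shift gave -0.87 and -0.90 (edgeR's quasi-likelihood test, Benjamini-Hochberg adjusted p = 0.129 and 0.158). Eppk1, which encodes epiplakin, rose by 1.96 in polysomal RNA at only 2 to 19 counts a library, and this call was lost without mock replicate B or C or METTL7A1 replicate D, E or F (edgeR's quasi-likelihood test, Benjamini-Hochberg adjusted p = 0.0131, 0.0121, 0.0226, 0.0109 and 0.0162; 0.00302 with all libraries; range 0.00287 to 0.0226). Dst and Ppl, also among the highest of the list, averaged 17.1 and 12.2 CPM.

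Of the other intermediate filament genes, 7 of 16 were tested and 6 had 0 counts in all libraries, with 0 rises and 1 fall in each pool and medians of -0.0093 for polysomal and 0.11 for sub-polysomal RNA. The fall was Nefh, a neurofilament gene with 0 to 34 counts a library, which averaged 3.71 ± 0.836 CPM in mock polysomal and 2.39 ± 0.644 CPM (SD, n = 3) in mock sub-polysomal RNA and was at 0 counts in all METTL7A1 sub-polysomal libraries (edgeR's quasi-likelihood test, Benjamini-Hochberg adjusted p = 1.24e-05 for polysomal and 0.00028 for sub-polysomal RNA). The most abundant were Lmna (535 CPM), Vim (253 CPM), Nes (59.5 CPM) and Iffo2 (50.2 CPM).

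Epithelial adhesion and polarity genes, which include Cdh1 and Epcam, were all tested, 30 of 30. In polysomal RNA 3 rose and 1 fell with a median of 0.34, and in sub-polysomal RNA 6 rose and 1 fell with a median of 0.16. The largest rises were those of the claudin genes Cldn3 and Cldn4, of tight junctions. Cldn4 went from 326 ± 37.1 to 1149 ± 263 CPM in sub-polysomal and from 407 ± 64.9 to 1076 ± 47.5 CPM in polysomal RNA (SD, n = 3), rises of 1.82 and 1.40 (edgeR's quasi-likelihood test, Benjamini-Hochberg adjusted p = 1.52e-06 and 1.99e-05). Cldn3 reached 436 ± 169 from 113 ± 17.3 CPM in sub-polysomal and 328 ± 22.0 from 86.5 ± 17.6 CPM in polysomal RNA (SD, n = 3). Ocln also rose in polysomal RNA, and Ctnnd1, Pkp3, Crb3 and Llgl2 in sub-polysomal RNA, genes named after their values were seen, as are Plek2, Rab25, Ddr1, Prom2, Foxc2, Itga5, Nt5e, Tgfb1 and Tgfb3 in what follows. The calls of Ocln and Crb3 lay close to the threshold (edgeR's quasi-likelihood test, Benjamini-Hochberg adjusted p = 0.0095 and 0.00825). Whether these calls hold under the alternatives is not given here. The falls were Epcam in sub-polysomal RNA and P-cadherin (Cdh3) in polysomal RNA, at 0 to 25 counts a library, with a log2 change of -3.42 (edgeR's quasi-likelihood test, Benjamini-Hochberg adjusted p = 0.00127, and 0.0111 without METTL7A1 replicate E, in a range of 9.25e-06 to 0.0111). Cldn7 and Lsr averaged 494 and 365 CPM.

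**Figure D5:**
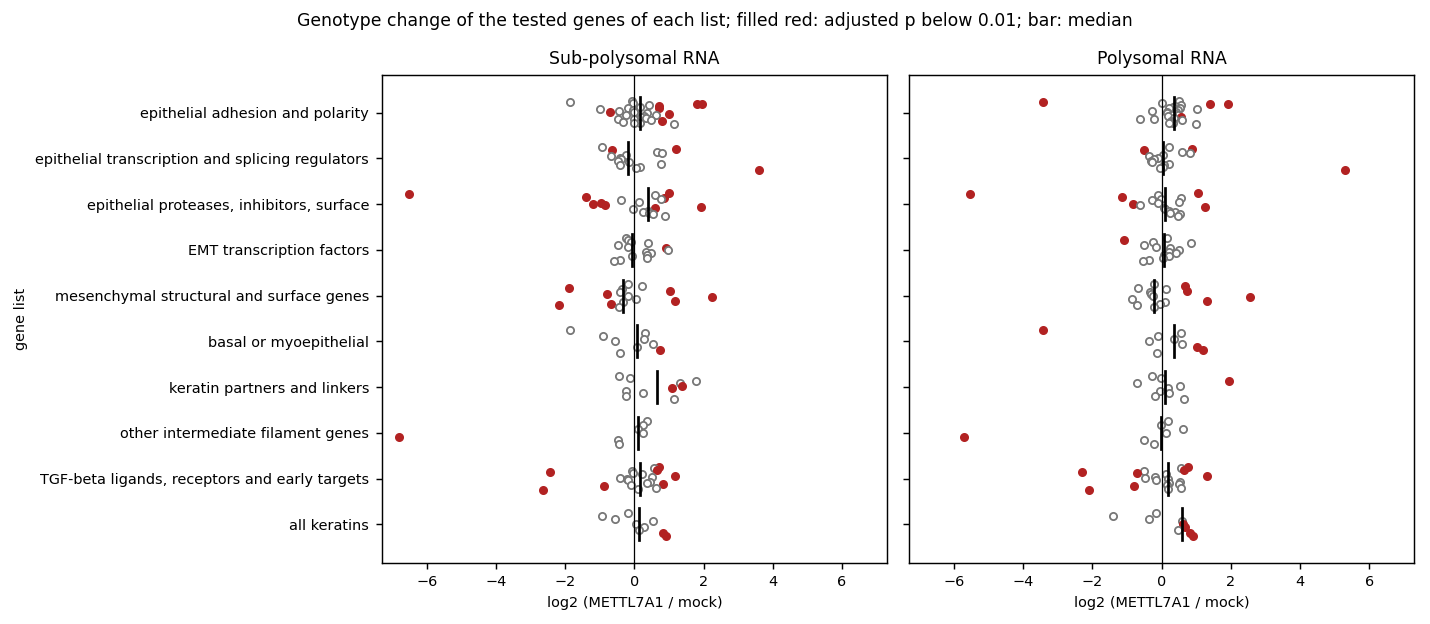
Log2 change in METTL7A1 against mock cells (x axis) of the tested genes of 10 lists, in sub-polysomal RNA on the left and polysomal RNA on the right; filled red points passed at an adjusted p below 0.01 and black bars are medians, and a gene can stand in more than 1 list. The bars lie between -0.33 and 0.67 in sub-polysomal and between -0.24 and 0.58 in polysomal RNA.

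Epithelial transcription and splicing regulators, of which 16 of 20 were tested, had 2 rises and 1 fall in each pool, with medians of 0.04 for polysomal and -0.20 for sub-polysomal RNA, and in sub-polysomal RNA these counts are near the shares over all tested genes. The rises were Elf3, an ETS factor of epithelia, by 0.89 and 1.21 in polysomal and sub-polysomal RNA (edgeR's quasi-likelihood test, Benjamini-Hochberg adjusted p = 0.00108 and 0.000156), and Tfap2c, an AP-2 factor that had 0 to 21 counts a library and averaged 2.62 ± 0.133 CPM in METTL7A1 against 0.0455 ± 0.0788 CPM in mock polysomal RNA (SD, n = 3). The polysomal call of Elf3 was lost without METTL7A1 replicate E (edgeR's quasi-likelihood test, Benjamini-Hochberg adjusted p = 0.0122; range 6.17e-06 to 0.0122). Esrp1, which directs epithelial splicing, fell by 0.50 in polysomal and by 0.65 in sub-polysomal RNA (edgeR's quasi-likelihood test, Benjamini-Hochberg adjusted p = 0.00849 and 0.0015). Its polysomal call was lost under most alternatives, with Actb scaling and without A, B, C, D, E or F (edgeR's quasi-likelihood test, Benjamini-Hochberg adjusted p = 0.0809, 0.0239, 0.0265, 0.0126, 0.0353, 0.0625 and 0.035; range 0.000903 to 0.0809). Its sub-polysomal call with Actb scaling and without METTL7A1 replicate D or E (edgeR's quasi-likelihood test, Benjamini-Hochberg adjusted p = 0.0639, 0.0131 and 0.013; range 0.000124 to 0.0639). Klf5 and Gata3 averaged 54.4 and 51.0 CPM.

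Epithelial proteases, their inhibitors and other surface genes (19 of 20 tested) had 2 rises and 3 falls in polysomal and 4 rises and 5 falls in sub-polysomal RNA, with medians of 0.10 and 0.38. Prss8, the membrane protease prostasin, rose by 1.25 in polysomal and 1.91 in sub-polysomal RNA (edgeR's quasi-likelihood test, Benjamini-Hochberg adjusted p = 0.000155 and 1.29e-05), and Ap1m2, an epithelial sorting adaptor, by 1.06 and 0.99 (edgeR's quasi-likelihood test, Benjamini-Hochberg adjusted p = 4.98e-05 and 0.000288). Bspry fell from 21.0 ± 0.0329 to 0.397 ± 0.347 CPM in polysomal and from 33.6 ± 8.39 to 0.322 ± 0.364 CPM in sub-polysomal RNA (SD, n = 3). Cd24a, a surface glycoprotein and the most abundant gene of the list at a mean of 1198 CPM, fell by 1.14 and 1.39 (edgeR's quasi-likelihood test, Benjamini-Hochberg adjusted p = 0.000803 and 9.34e-05), and its polysomal call was lost without METTL7A1 replicate D or E (edgeR's quasi-likelihood test, Benjamini-Hochberg adjusted p = 0.0109 and 0.0173; range 2.51e-08 to 0.0173). Plek2 fell in both pools, Prom2 and Perp fell and Rab25 and Ddr1 rose in sub-polysomal RNA, and the call of Perp was lost with Actb scaling (edgeR's quasi-likelihood test, Benjamini-Hochberg adjusted p = 0.0137; 0.000399 with TMM factors; range 3.38e-08 to 0.0137). Sdc1 and Spint2 averaged 879.6 and 644 CPM.

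EMT transcription factors, with Zeb2 and Twist1 among them, had 15 of 20 genes tested and 2 at 0 in all libraries, Twist2 and Gsc. In polysomal RNA 0 rose and 1 fell, Foxc2, and in sub-polysomal RNA 1 rose and 0 fell, with medians of 0.07 and -0.08 (edgeR's quasi-likelihood test). The call of Foxc2 lay close to the threshold (edgeR's quasi-likelihood test, Benjamini-Hochberg adjusted p = 0.00794), and whether it holds under the alternatives is not given here. The rise was Snai1, the Snail gene, which went from 12.6 ± 3.02 to 23.7 ± 3.20 CPM in sub-polysomal RNA (SD, n = 3) and rose by 0.91 (edgeR's quasi-likelihood test, Benjamini-Hochberg adjusted p = 0.00271), a call lost without mock replicate C or METTL7A1 replicate D or E (edgeR's quasi-likelihood test, Benjamini-Hochberg adjusted p = 0.0254, 0.014 and 0.021; range 0.000202 to 0.0254). In polysomal RNA Snai1 was at 10.2 ± 1.55 CPM in mock and 12.1 ± 1.83 CPM in METTL7A1 cells (SD, n = 3), and its shift of -0.68 did not pass (edgeR's quasi-likelihood test, Benjamini-Hochberg adjusted p = 0.254). Snai2 had at most 1 count a library. The most abundant factors were Hmga2 (202 CPM), Tcf3 (113 CPM), Sox4 (76.0 CPM) and Smad3 (36.7 CPM), none of which passed, and Sox9 passed in neither pool.

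Mesenchymal structural and surface genes, Vim included, had 15 of 30 tested and 7 at 0 in all libraries. In polysomal RNA 4 rose and 0 fell, in sub-polysomal RNA 3 rose and 4 fell, and the medians were -0.24 and -0.33. Postn, a matricellular gene, rose by 2.55 and 2.24 (edgeR's quasi-likelihood test, Benjamini-Hochberg adjusted p = 5.67e-06 and 0.000373) in polysomal and sub-polysomal RNA, at 1 to 84 counts a library. Itga5 rose in both pools and Cd44 in polysomal RNA by 0.67. The falls in sub-polysomal RNA were Tnc, from 22.0 ± 5.92 to 4.83 ± 1.92 CPM (SD, n = 3; edgeR's quasi-likelihood test, Benjamini-Hochberg adjusted p = 2.47e-05), Col5a1, Spp1 and Nt5e. The shift of Tnc was 1.46 and did not pass (edgeR's quasi-likelihood test, Benjamini-Hochberg adjusted p = 0.114). The polysomal call of Cd44 was lost with RLE or Actb scaling, with the filter of at least 10 counts, and without B, C, D, E or F (edgeR's quasi-likelihood test, Benjamini-Hochberg adjusted p = 0.0107, 0.0114, 0.0117, 0.0329, 0.0392, 0.0604, 0.0464 and 0.0168; 0.00928 with all libraries; range 0.000426 to 0.0604). The sub-polysomal call of Col5a1 was lost with limma-voom and without A, B, E or F (Benjamini-Hochberg adjusted p = 0.0102, 0.0136, 0.0163, 0.0255 and 0.0159; 0.00319 with edgeR's quasi-likelihood test; range 7.28e-06 to 0.0255), and the sub-polysomal call of Spp1 with Actb scaling and without A, C, D, E or F (edgeR's quasi-likelihood test, Benjamini-Hochberg adjusted p = 0.132, 0.0128, 0.033, 0.018, 0.0316 and 0.0289; 0.00594 with all libraries; range 0.00039 to 0.132). Axl and Fn1 averaged 976.5 and 445 CPM.

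Basal or myoepithelial genes, which include Krt14, had 9 of 20 tested and 4 at 0 in all libraries, with 2 rises and 1 fall (Cdh3) in polysomal and 1 rise and 0 falls in sub-polysomal RNA, and medians of 0.34 and 0.08 (edgeR's quasi-likelihood test). The rises were laminin chains of the basement membrane. Lamb3 went from 168 ± 28.4 to 385 ± 39.3 CPM in polysomal and from 121 ± 9.41 to 201 ± 41.4 CPM in sub-polysomal RNA (SD, n = 3), rises of 1.20 and 0.73 (edgeR's quasi-likelihood test, Benjamini-Hochberg adjusted p = 5.33e-05 and 0.00308), the latter lost without mock replicate C or METTL7A1 replicate D or E (edgeR's quasi-likelihood test, Benjamini-Hochberg adjusted p = 0.0141, 0.0297 and 0.0203; range 0.000179 to 0.0297). Lama3 rose by 1.01 in polysomal RNA (edgeR's quasi-likelihood test, Benjamini-Hochberg adjusted p = 0.000159), and its shift of 0.93 did not pass (edgeR's quasi-likelihood test, Benjamini-Hochberg adjusted p = 0.114). Itgb4, an integrin gene at a mean of 78.3 CPM, did not pass.

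TGF-beta ligands, receptors and early targets, genes of a pathway that can drive the transition, had 20 of 21 tested, with 3 rises and 4 falls in polysomal and 4 rises and 3 falls in sub-polysomal RNA, and medians of 0.18 and 0.17. Id2, a target and inhibitor of helix-loop-helix factors, fell from 101 ± 14.1 to 20.7 ± 5.54 CPM in polysomal and from 145 ± 27.9 to 26.4 ± 2.20 CPM in sub-polysomal RNA (SD, n = 3; edgeR's quasi-likelihood test, Benjamini-Hochberg adjusted p = 1.24e-07 and 1.03e-07). Tgfbr3, a coreceptor with 1 to 24 counts a library, fell by 2.10 and 2.65 (edgeR's quasi-likelihood test, Benjamini-Hochberg adjusted p = 0.00187 and 0.00271). Its polysomal call was lost without B, D or E (edgeR's quasi-likelihood test, Benjamini-Hochberg adjusted p = 0.0171, 0.0118 and 0.0284; range 0.000844 to 0.0284) and its sub-polysomal call without C, D, E or F (edgeR's quasi-likelihood test, Benjamini-Hochberg adjusted p = 0.0224, 0.0144, 0.0213 and 0.0103; range 0.00253 to 0.0224). Ccn2 and Bhlhe40 rose in both pools, Tgfb1 rose in sub-polysomal RNA, Tgfb3 fell in both, and Id3 fell by 0.70 in polysomal RNA. The rises of Bhlhe40, 0.75 and 0.71, were lost without METTL7A1 replicate E (edgeR's quasi-likelihood test, Benjamini-Hochberg adjusted p = 0.0155 and 0.0129; ranges 8.56e-06 to 0.0155 and 0.000301 to 0.0129). Ccn2 lost its polysomal call with Actb scaling and without B, C, D, E or F (edgeR's quasi-likelihood test, Benjamini-Hochberg adjusted p = 0.0138, 0.0382, 0.0172, 0.0299, 0.0404 and 0.0203; range 9.42e-06 to 0.0404) and its sub-polysomal call without B, C, D or E (edgeR's quasi-likelihood test, Benjamini-Hochberg adjusted p = 0.0239, 0.0181, 0.0329 and 0.0217; range 6.57e-06 to 0.0329). Id3 lost its call with Actb scaling and without B, C, D, E or F (edgeR's quasi-likelihood test, Benjamini-Hochberg adjusted p = 0.0377, 0.0146, 0.0292, 0.0429, 0.0377 and 0.0157; range 0.000263 to 0.0429). Ccn1 and Pmepa1, high in the list at 1081 and 350.2 CPM, are given by level.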

How the data were processed

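The counts per gene were used as deposited. According to the authors, reads were demultiplexed with bcl2fastq 2.20.0.422, aligned to mm10 (GRCm38) with STAR 2.5.3a and counted with featureCounts on Ensembl annotation, with R 3.5.1 downstream. Strand and multi-mapping settings of the counting are not stated. For its total RNA the paper describes stranded, rRNA-depleted, paired-end libraries with reads trimmed by BBDuk. The 12 libraries used here had 1817520 to 6966156 counts.

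Genes that reached 1 CPM in 3 or more libraries (12224 of 55376) were fitted here with edgeR 4.0.16 (TMM factors, quasi-likelihood F test, 1 mean per group over 12 libraries) in R 4.3.3, with Benjamini-Hochberg adjustment over all genes tested. Passed means adjusted p below 0.01. CPM uses TMM factors, except in sums over the cell-type lists, which use library totals. Alternatives were limma-voom (limma 3.58.1), DESeq2 1.42.0, RLE or Actb scaling, other filters and thresholds, a replicate block, fits of only the compared groups, and fits without each replicate letter. Promoters were read with Python 3.11.15 and figures drawn with matplotlib 3.10.9.

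The members and the lists were chosen with earlier results of these data known. Named are the members, Mettl7a1, Actb, in each list the 4 genes of highest mean CPM and up to 2 genes per direction that passed with the largest change averaged over both pools, and the 3 genes most like each member. Other genes are named where the text says that their values had been seen. Some list genes and 1 matched promoter are not reported here.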

Additional observations from a re-analysis of the deposited data

How the results depend on the processing

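Between genotypes, 1077 genes (3 members) passed in polysomal and 2219 (2 members) in sub-polysomal RNA. DESeq2 passed 1281 genes (5 members) in polysomal RNA, and Actb scaling 2366 genes (1 member) in sub-polysomal RNA. An adjusted p below 0.05 gave 2197 genes (5 members) in polysomal and 3834 (4 members) in sub-polysomal RNA. A log2 change beyond 1.5 as well left 260 and 337 genes between genotypes, 923 between the mock pools and 1480 between the METTL7A1 pools, with 0 members in each. Leaving out 1 letter gave 480 to 1249 genes (0 to 5 members) in polysomal RNA, 1101 to 2037 (1 to 2 members) in sub-polysomal RNA and 3610 to 6058 between the METTL7A1 pools, lowest without E each time; the cause was not tested. The shift, 0 genes with edgeR and limma-voom, had 39 with DESeq2 and 33 without the expression filter. With the replicate letter as block, 3690 genes (5 members) passed between the mock pools, 5388 (9 members) between the METTL7A1 pools and 0 in the shift; residuals of the pools of a letter correlated at 0.107, -0.108, -0.292, 0.0377, 0.0189 and 0.0451 for A to F, so the letters show no pairing. Some directions turned, none of which passed. Actb scaling gave 0.16 for Cdh1 between genotypes in sub-polysomal RNA and shifts of -0.16 for Krt8, -0.10 for Zeb2 and -0.12 for Twist1. The shift was -0.027 for Zeb2 and -0.015 for Twist1 with limma-voom, and for Krt8 -0.024 without the filter and -0.0088 with at least 10 counts in every library. Leaving out 1 letter gave -0.046 to 0.12 for Krt18 between genotypes in sub-polysomal RNA and -0.68 to 0.00034 for Zeb2 between the mock pools. The shifts ran from -0.14 to 0.20 for Krt8, from -0.22 to 0.47 for Zeb2 and from -0.16 to 0.24 for Twist1.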
